A study of Mus musculus with 32 samples.

Results

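The genes described here are 8 genes of interleukin-6 (IL-6) family signalling, measured in the distal colon of mice with and without the adaptor gene Myd88. They were 4 cytokines (Il6, Il11, Lif and Osm), 2 receptor chains (Il6ra and Il6st), the transcription factor Stat3 and its feedback inhibitor Socs3. The genes were chosen by symbol from the array's annotation, and all 8 were found among the 18193 genes measured. The arrays carried 18 probe sets for them, and each gene was read from its probe set with the highest mean signal over all 32 arrays. All mice were C57 BL6NCr. They were wild type (WT) or carried a Myd88 knockout (KO, Myd88-/-) in the whole animal, backcrossed to the same background. Myd88 is the adaptor through which most Toll-like receptors and the receptors for IL-1 and IL-18 signal, and the deleted stretch of the gene is not named in the labels. Treated mice, aged 6 to 8 weeks, were injected intraperitoneally with the carcinogen azoxymethane (AOM, 10 mg/kg). After 1 week their water contained 2% dextran sodium sulfate (DSS, toxic to the colon epithelium) for 3 days, and they were then killed. Each genotype had 10 treated and 6 untreated mice, with an array for each mouse. The labels give no age for the untreated mice.

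IL-6 family cytokines act through receptors that share the signalling chain gp130, encoded by Il6st. IL-6 first binds its own receptor chain (Il6ra), IL-11 binds Il11ra1, and LIF and oncostatin M (Osm) pair gp130 with the chains encoded by Lifr or Osmr. Kinases of the JAK family bound to gp130 phosphorylate STAT3, which enters the nucleus and switches on genes of survival, growth and acute defence. Socs3 is among these genes, and its product binds gp130 and the JAK kinases and shuts the signal off. In the mouse colon, IL-6 and IL-11 acting through STAT3 are known to drive epithelial repair and the growth of colitis-associated tumours. Stromal cells are a known source of IL-11, and myeloid cells of IL-6 and oncostatin M.

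Values are log2 probe set signals after quantile normalization. The deposited table sets signals under 10 to 10, which is 3.322 on the log2 scale and is called the floor here. On each array 18.7% to 23.9% of probe sets were at this floor. A gene at the floor has no measured level, and a difference against it is too small. Differences are given ± their standard error from a limma model of the 4 groups over all 32 arrays, and a gene was called where its Benjamini-Hochberg adjusted p over 18193 genes was under 0.05. Without treatment, Myd88 itself averaged 8.40 ± 0.10 in WT and 7.67 ± 0.11 in KO mice (SD, n = 6 each). With treatment it averaged 8.46 ± 0.12 in WT and 8.00 ± 0.31 in KO mice (SD, n = 10 each). Treated KO repeats 3, 5 and 7 (8.31, 8.28 and 8.29) lay above treated WT repeats 2 and 4 (8.26 and 8.27), so the treated genotypes overlapped for Myd88. All untreated KO mice lay at or below 7.81 and all untreated WT mice at or above 8.23. Because the deleted stretch is not named, the probe set is a limited check of the labels. All 12 markers of colonic epithelium were measured, with none at the floor on all arrays of a group. Treated WT repeats 1 and 2 stood apart in 11 markers of squamous epithelium, with means of 11.7 and 10.4 against a median of 7.81 for their group. The whole group was also high: its mean was 7.89, against 5.84 in untreated WT, 5.92 in untreated KO and 6.47 in treated KO mice. For 8 skeletal muscle markers the means were 7.26 in treated WT, 5.72 in untreated WT, 6.41 in untreated KO and 6.72 in treated KO mice. The spread was wide, with an SD of 2.09 (squamous) and 1.93 (skeletal muscle) in treated WT mice (n = 10). Between treated genotypes limma called 0 of 11 squamous and 0 of 8 skeletal muscle markers, against 12.8% of all genes. In WT mice treatment gave 1 of 11 and 0 of 8, against 1.84% of all genes. Tissue makeup may thus have differed in comparisons with treated WT mice. Repeat numbers are those of the titles, and no array was identical to another. In bulk tissue, fewer cells of a type and less RNA per cell cannot be told apart.

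In the KO mice, treatment was followed by higher levels of 5 of the 8 genes: Socs3 (4.95-fold), Il11 (3.28-fold), Osm (1.77-fold), Lif (1.71-fold) and Stat3 (1.53-fold). Over all genes, 8.7% were called higher and 18.8% were called in either direction in this comparison. None of the 8 genes was called by limma between untreated and treated WT mice (1 had an unadjusted p under 0.05). That gene, Socs3, ranked 1818 of 18193 genes by its p in that comparison. Of all genes, 1.84% were called there. Fitted on the WT groups alone, without the spread of the KO mice, 5.01% of all genes were called, Socs3 among them. Fitted on the KO groups alone, 10.6% of all genes were called. Of the treated mice, KO exceeded WT for Il11 and Stat3, against 6.24% of all genes called higher and 12.8% in either direction. The treated KO mice take part in both of these KO comparisons, so the pair does not repeat independently. The response of KO mice minus that of WT mice was called for none of the 8 genes by limma (3 had an unadjusted p under 0.05), against 0.055% of all genes. Osm, with the largest p of those 3, ranked 1852 of 18193 genes. The median difference of the 8 genes was 0.69 in KO mice, 0.15 in WT mice and 0.34 between treated KO and treated WT mice, while the median over all genes was 0.00 in each. The 8 genes were chosen with earlier results of these data known, so their shares and medians are no independent result.

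**Figure D1:**
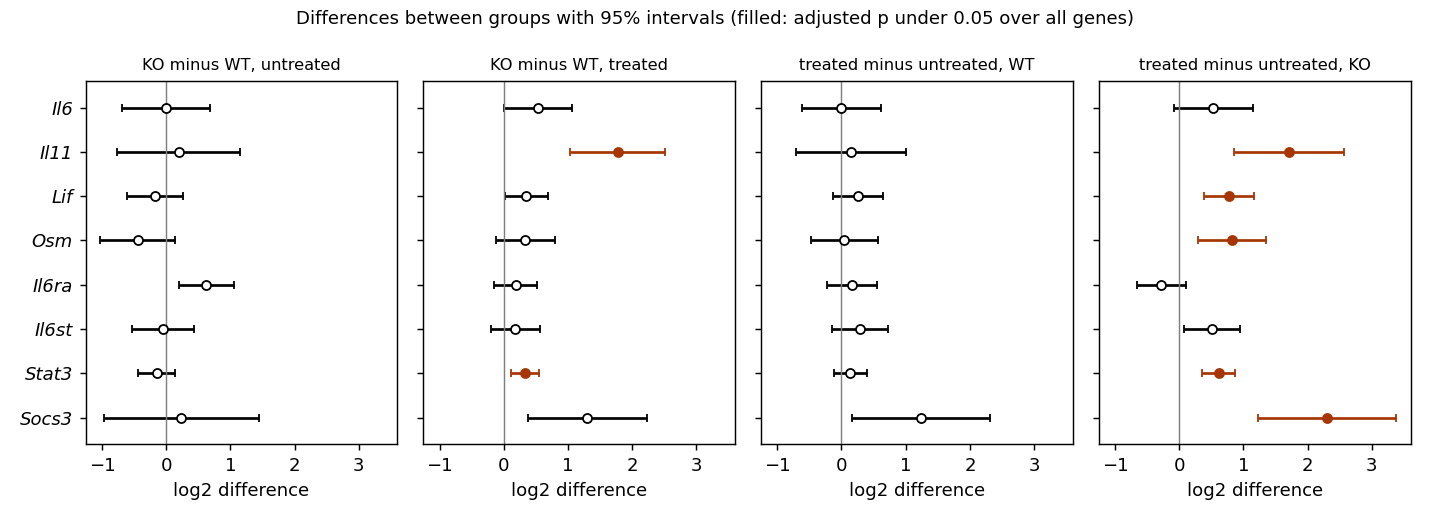
Log2 differences of the 8 genes in 4 comparisons, with 95% intervals from the limma model over 32 arrays; filled points passed the adjusted p threshold. Filled points stand in the treated minus untreated KO panel (Socs3, Il11, Osm, Lif and Stat3) and in the treated KO minus treated WT panel (Il11 and Stat3).

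Il11 encodes a cytokine of stromal origin that acts on epithelium and fibroblasts. Its level lay at 3.32, 3.32 and 4.18 (lowest, median and highest) in untreated WT mice, with 4 of 6 arrays at the floor. In treated WT mice the lowest, median and highest values were 3.32, 3.32 and 5.00, and 6 of 10 arrays were at the floor. The untreated KO mice had 3.32, 3.68 and 4.18, with 3 of 6 at the floor. In treated KO mice the values were 3.85, 5.19 and 8.29, and no array was at the floor. Of the treated KO mice, 9 of 10 lay above every untreated KO mouse and 6 of 10 above every treated WT mouse, so the groups overlapped in both comparisons. Repeat 3 was far the highest of the treated KO mice, and repeats 8 (3.85) and 9 (4.19) were the lowest. The mean rose from 3.72 ± 0.43 (SD, n = 6) in untreated to 5.43 ± 1.27 (SD, n = 10) in treated KO mice, a difference of 1.72 ± 0.42 (adjusted p = 0.0042, limma). Treated KO mice exceeded treated WT mice by 1.77 ± 0.36 (3.42-fold, adjusted p = 0.0019, limma). Because many arrays of the other groups lay at the floor, both folds are understated by an unknown amount. Both calls held with any of the 32 arrays left out, the differences then lying between 1.40 and 1.89 and between 1.45 and 1.95. In WT mice the difference between treated and untreated was 0.14 ± 0.42, with an interval (95%) from -0.71 to 1.00. The genotype by treatment term for Il11 was 1.57 ± 0.59 (adjusted p = 0.279, limma).

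The promoter of Il11 is shown because the cytokine had the largest measured difference between treated KO and treated WT mice among the 8 genes. RefSeq (GRCm38.p6) lists 2 start sites for Il11 on chromosome 7. The 250 bases before the downstream start, on the minus strand (chr7:4778142-4778391), run 5′ to 3′ as follows, with a match to the AP-1 motif TGANTCA in capitals.
Il11 promoter: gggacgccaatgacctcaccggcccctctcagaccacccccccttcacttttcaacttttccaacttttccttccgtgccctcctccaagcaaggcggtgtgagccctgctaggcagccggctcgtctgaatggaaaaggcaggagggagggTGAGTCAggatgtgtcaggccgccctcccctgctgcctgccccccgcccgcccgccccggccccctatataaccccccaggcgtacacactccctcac
The match began 98 bases before the start, and the window before the other start held no match. Windows of 300 bases (250 before and 50 after the start) were searched on both strands for 3 motifs: TTCNNNGAA for STAT factors, TGANTCA for AP-1 and TTGCNNAA for C/EBP. Of 32851 such windows in the RefSeq table, 7.81% held the AP-1 letters, 8.3% the STAT letters and 10.8% the C/EBP letters. The Lif window held the AP-1 letters (228 bases before the start). The Il6 window held the AP-1 and the C/EBP letters (249 and 128 bases before the start). Windows were found for 7 of the 8 genes, all but Osm. Those of Il6ra, Il6st and Stat3 held none of the 3 motifs. A match describes the letters only.

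Il6, the cytokine that names the family, was at the floor on 29 of 32 arrays, among them all 22 arrays of the other 3 groups. The 3 arrays above the floor were treated KO mice: repeats 1 (3.90), 10 (5.00) and 3 (6.40). Repeat 1 was close to the floor, with a deposited value of 3.61 before normalization. The other 7 treated KO mice were listed at the floor. Treated KO minus untreated KO was 0.53 ± 0.30 (adjusted p = 0.231, limma), which did not pass, and a gene at the floor on nearly all arrays is poorly suited to this test. Of the 3 mice, repeats 3 and 10 had high Socs3 (11.21 and 10.32), while repeat 1 had a low value (7.61).

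Lif encodes leukaemia inhibitory factor, a family member made by many injured tissues. Its lowest, median and highest values were 4.28, 4.45 and 4.97 in untreated WT and 4.16, 4.74 and 5.41 in treated WT mice. They were 3.64, 4.43 and 5.05 in untreated KO and 4.36, 5.25 and 5.49 in treated KO mice. In the KO mice 7 of 10 treated animals lay above all untreated ones, while in WT mice 3 of 10 did. Lif rose in the KO mice by 0.78 ± 0.19 (1.71-fold, adjusted p = 0.0041, limma), a call that held with any array left out. A further, dimmer Lif probe set was at the floor on 29 of 32 arrays and gave -0.10 ± 0.14 (adjusted p = 0.71, limma over all probe sets) for the same comparison, so the rise rests on 1 probe set. Treated KO minus treated WT was 0.35 ± 0.16 for Lif and did not pass (adjusted p = 0.172, limma).

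Osm encodes oncostatin M, a cytokine of myeloid cells that acts on stroma. It lay at 3.46, 4.67 and 5.32 (lowest, median and highest) in untreated WT and at 3.98, 4.71 and 5.25 in treated WT mice, so these groups overlapped fully. In untreated KO mice it was 3.32, 4.15 and 5.09, with 1 array at the floor, and in treated KO mice 4.22, 5.09 and 5.50. Of the treated KO mice, 5 of 10 lay above all untreated KO mice. Osm rose by 0.83 ± 0.26 (1.77-fold, adjusted p = 0.0235, limma) in the KO mice. The call was lost without untreated KO repeat 4 (adjusted p = 0.085, limma) and on the values as deposited (0.69, adjusted p = 0.0743, limma). The untreated KO mice had the lowest mean for Osm (untreated KO minus untreated WT -0.44 ± 0.29, adjusted p = 0.799, limma), and treated KO minus treated WT was 0.34 ± 0.22 (adjusted p = 0.367, limma).

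**Figure D2:**
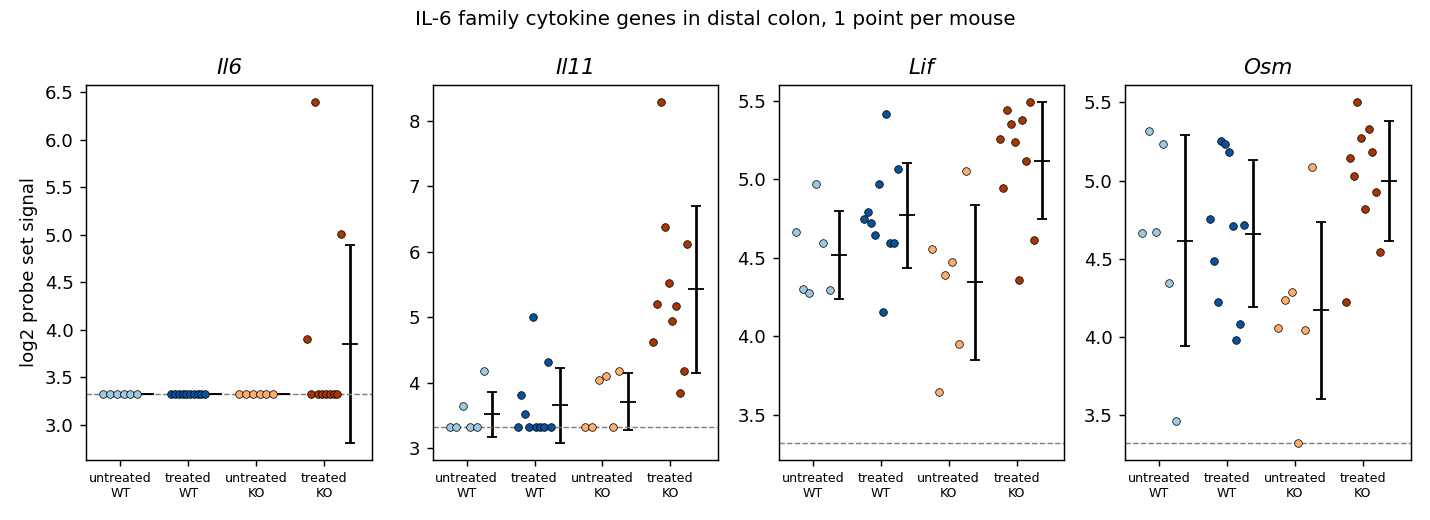
Log2 signals of Il6, Il11, Lif and Osm in the 4 groups. Points are mice, the bar beside them is the mean ± SD, and the dashed line is the floor at 3.322. Il6 leaves the floor in 3 treated KO mice only, and no treated KO mouse is at the floor for Il11.

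Il6ra encodes the chain that binds IL-6. Its lowest, median and highest values were 5.40, 5.67 and 6.05 in untreated WT mice and 5.74, 6.44 and 6.81 in untreated KO mice. In treated mice they were 4.69, 5.94 and 6.43 (WT) and 5.64, 6.09 and 6.32 (KO), and all groups overlapped. The largest difference of Il6ra was between the untreated genotypes, where 4 of 6 KO mice lay above all WT mice. At 0.63 ± 0.21 it had an unadjusted p of 0.0059 (limma), the smallest of the 8 genes in that comparison, and an adjusted p of 0.454. None of the 8 genes was called there by limma, against 0.115% of all genes, and Il6ra alone had an unadjusted p under 0.05. The dimmer Il6ra probe set gave 0.01 ± 0.18 in the same comparison. Treated minus untreated was -0.28 ± 0.19 in KO and 0.17 ± 0.19 in WT mice, and neither passed.

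Il6st, the gp130 chain shared by the family, lay at 8.30, 8.56 and 8.91 in untreated WT and at 8.60, 8.75 and 9.48 in treated WT mice (lowest, median and highest). It lay at 8.29, 8.56 and 8.76 in untreated KO and at 7.91, 9.04 and 9.73 in treated KO mice. The treated KO mice spread to both sides of the untreated ones: 8 of 10 lay above all of them, and repeats 1 (7.91) and 9 (8.11) lay below all of them. Treated minus untreated was 0.51 ± 0.21 in KO mice and did not pass (adjusted p = 0.091, limma). Il6st was called without treated KO repeat 1 or 9 and where arrays were centred on their medians (0.60, adjusted p = 0.0256, limma). Of its 4 probe sets none was called when each was tested alone; their differences in KO mice were 0.51, 0.66, 0.10 and 0.75.

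Stat3 encodes the transcription factor that gp130 activates, and the gene is itself a STAT3 target. Its lowest, median and highest values were 9.80, 9.89 and 10.03 in untreated WT and 9.79, 10.00 and 10.34 in treated WT mice. In KO mice they were 9.67, 9.73 and 9.89 without treatment and 9.62, 10.43 and 10.89 with it. Of the treated KO mice, 8 of 10 exceeded all untreated KO mice and 7 of 10 all treated WT mice, with repeats 9 (9.62), 1 (9.85) and 6 (10.14) the lowest. Stat3 rose in the KO mice by 0.61 ± 0.13 (1.53-fold, adjusted p = 0.0011, limma), the smallest change of the 5 called genes and the one with the smallest adjusted p. That call held with any array left out and in all 13 other settings tried for it. A rise in Stat3 RNA is no measure of the phosphorylated protein, which arrays do not see. In treated mice, KO exceeded WT by 0.33 ± 0.11 (1.26-fold, adjusted p = 0.0426, limma). That call was lost without any 1 of 13 arrays (treated WT repeats 1, 2, 4, 6, 8 and 10, and treated KO repeats 2, 3, 4, 5, 7, 8 and 10; adjusted p up to 0.097, limma) and was kept in 7 of 13 other settings. Of the 4 Stat3 probe sets tested alone, the KO response was 0.61, 0.63 (both called), 0.53 (adjusted p = 0.0755) and, for the dimmest, -0.11 (adjusted p = 0.839, limma).

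Socs3, the feedback inhibitor, had the largest measured difference of the 8 genes between treated and untreated mice in either genotype, although those of Il6 and Il11 are limited by the floor. In untreated WT mice its lowest, median and highest values were 6.50, 6.91 and 7.32, and in treated WT mice 6.80, 8.05 and 9.61. Of the treated WT mice, 9 of 10 lay above all untreated WT mice, with repeat 8 the exception. Untreated KO mice had 6.63, 7.24 and 7.41, and treated KO mice 6.79, 9.92 and 11.21. Of the treated KO mice, 9 of 10 exceeded all untreated KO mice and 5 of 10 all treated WT mice. Socs3 rose in KO mice by 2.31 ± 0.53 (4.95-fold, adjusted p = 0.0025, limma), between 2.11 and 2.60 with any array left out and called each time. In WT mice the difference was 1.24 ± 0.53 (2.37-fold, interval from 0.17 to 2.32) with an unadjusted p of 0.025 and an adjusted p of 0.25 (limma), and Socs3 was the only one of the 8 genes with an unadjusted p under 0.05 there. Fitted on the WT groups alone, this difference passed the threshold (adjusted p = 0.0455, limma). The KO response exceeded the WT response by 1.06 ± 0.74 (interval from -0.46 to 2.58, adjusted p = 0.614, limma). Treated KO minus treated WT was 1.30 ± 0.46 (2.47-fold) and narrowly missed (adjusted p = 0.0569, limma). It passed in 8 of 13 other settings, and without treated WT repeat 7 or treated KO repeat 1, 6 or 9. All 3 Socs3 probe sets gave the KO response (2.31, 2.51 and 2.17, each called). For treated KO minus treated WT they gave 1.30, 1.33 and 1.57, of which the last 2 were called.

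The bases before the start listed for Socs3 are shown because the gene is the feedback target of the pathway. The 250 bases before its RefSeq start, on the minus strand of chromosome 11 (GRCm38.p6, chr11:117969367-117969616), run 5′ to 3′ as follows, with a match to the palindromic STAT motif TTCNNNGAA in capitals.
Socs3 promoter: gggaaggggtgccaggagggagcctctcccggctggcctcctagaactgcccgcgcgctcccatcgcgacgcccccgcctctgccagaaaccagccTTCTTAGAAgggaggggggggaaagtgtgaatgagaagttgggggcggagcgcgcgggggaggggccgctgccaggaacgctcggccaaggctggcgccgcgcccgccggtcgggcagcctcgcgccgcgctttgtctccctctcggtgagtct
The match began 154 bases before the start. Among the windows of the 8 genes, that of Socs3 was the only one with the STAT letters, which 8.3% of all windows held. Neither of the other motifs was found in the Socs3 window. The RefSeq gene table carries Socs3 further upstream than this start, to position 117970336. The printed stretch and its STAT match thus lie inside the listed gene. Whether the stretch acts as a promoter was not tested.

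**Figure D3:**
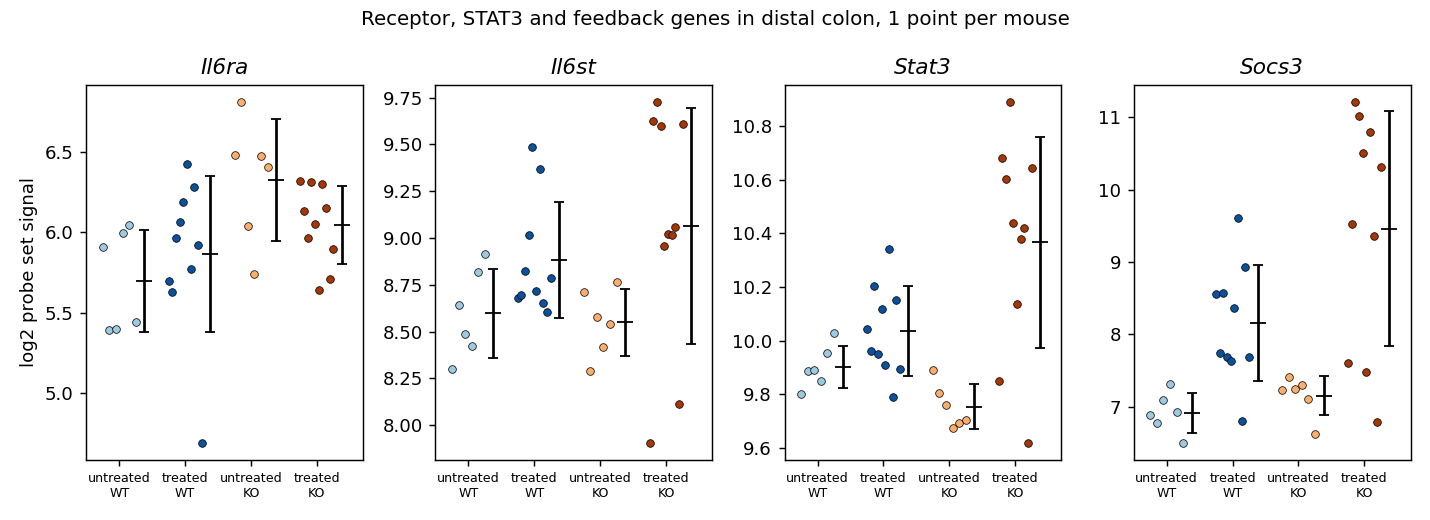
Log2 signals of Il6ra, Il6st, Stat3 and Socs3 in the 4 groups. Points are mice and the bar beside them is the mean ± SD. The treated KO mice have the widest spread for Il6st, Stat3 and Socs3, and for Socs3 they reach from 6.79 to 11.21.

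The treated KO mice differed widely among themselves. Socs3 had an SD of 1.62 there (n = 10) against 0.80 in treated WT mice (n = 10), and Il11 an SD of 1.27 against 0.57. Repeats 9, 6 and 1 were low for Socs3 (6.79, 7.49 and 7.61) and for Stat3. Repeats 3, 4 and 7 were the highest for Socs3 (11.21, 11.02 and 10.80), and repeat 3 was also the highest for Il11 and Il6. Other measures moved with these values. Myd88 was lowest in repeats 9, 1 and 6 (7.50, 7.64 and 7.65) and highest in repeats 3, 7 and 5 (8.31, 8.29 and 8.28), whose values reached those of treated WT mice. The mean of 12 macrophage and monocyte markers, all measured, lay between 7.39 (repeat 9) and 9.17 (repeat 3) in treated KO mice, with 7.42 in repeat 1 and 7.66 in repeat 6. It ranged from 7.58 to 8.13 in untreated KO mice and from 7.93 to 8.65 in treated WT mice. The mean of 10 fibroblast markers lay between 9.06 (repeat 1) and 11.07 (repeat 3) in treated KO and between 9.50 and 10.32 in untreated KO mice. None of the macrophage or fibroblast markers was at the floor on all arrays of a group. The mean of 12 colonic epithelium markers ranged from 12.15 to 12.52 in treated KO and from 11.96 to 12.13 in untreated KO mice, with no overlap, and from 11.67 to 12.29 in treated WT mice. In KO mice 6 of 12 epithelial and 4 of 7 endothelial markers were called higher after treatment. The same held for 1 of 12 macrophage and 1 of 10 fibroblast markers, shares close to the 8.7% of all genes called higher. Between treated KO and treated WT mice 4 of 12 epithelial markers were called higher, against 6.24% of all genes. Of 10 neutrophil markers 8 were measured, and their mean ranged from 4.03 to 5.35 in treated and from 3.86 to 4.23 in untreated KO mice. The part of Myd88 signal and of each of these cell types, macrophages and fibroblasts among them, in these results was not tested.

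With the macrophage mean as a covariate, a setting chosen after the values were seen, the KO response was 1.61 for Socs3 (adjusted p = 0.0092), 1.17 for Il11 (0.0175), 0.73 for Lif (0.0146) and 0.46 for Stat3 (0.0039), all still called by limma. The Osm response was then 0.64 and no longer called (adjusted p = 0.101, limma). Without the covariate the KO responses were larger: 2.31 for Socs3, 1.72 for Il11, 0.83 for Osm, 0.78 for Lif and 0.61 for Stat3. With the fibroblast and smooth muscle means as covariates, all 5 genes remained called (Socs3 2.04, Il11 1.46, Osm 0.78, Lif 0.76 and Stat3 0.49), and Il6st was called too (0.25, adjusted p = 0.0071, limma). With the macrophage covariate, treated KO minus treated WT was 1.40 for Socs3 (adjusted p = 0.0049), 1.85 for Il11 and 0.35 for Stat3 (adjusted p = 0.0050), all called by limma. A marker mean comes from the same bulk RNA and cannot tell cell number from RNA per cell. These fits therefore do not test the part of these cells in the differences.

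**Figure D4:**
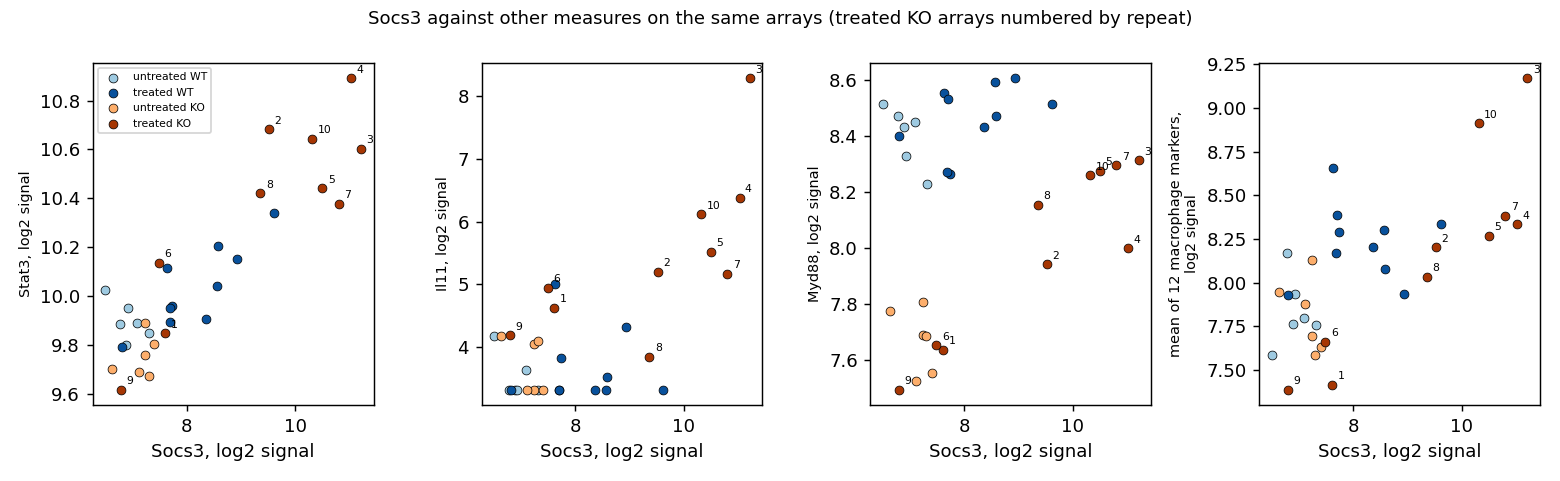
Log2 signals of Stat3, Il11 and Myd88 and the mean of 12 macrophage and monocyte markers (y axes) against the Socs3 log2 signal (x axis) of each of 32 mice. Colours are the groups and numbers are the repeats of the treated KO mice. Repeats 1, 6 and 9 lie at the low end for Socs3, Stat3, Myd88 and the macrophage mean, and repeat 3 at the high end for Socs3 (11.21) and Il11 (8.29).

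Of 87 further genes in 7 lists of this pathway, 78 were measured. The lists were chosen with earlier results of these data known, so their shares of called genes are no independent result. In KO mice 27 were called higher and 5 lower after treatment, against 8.7% and 10.1% of all genes. Between treated KO and treated WT mice 13 were called higher and 2 lower, against 6.24% and 6.58% of all genes. Among the 4 other family ligands measured none was called in any comparison by limma (0 had an unadjusted p under 0.05); the brightest, Ctf1 (cardiotrophin 1), differed by -0.23 ± 0.14 in the KO mice. Of 5 other receptor chains, Osmr, which pairs with gp130 to bind oncostatin M, was called in KO mice. Osmr lay at 6.38, 6.81 and 7.17 (lowest, median and highest) in untreated and at 6.48, 8.03 and 9.24 in treated KO mice. It rose by 1.07 ± 0.28 (2.10-fold, adjusted p = 0.007, limma). In WT mice Osmr ranged from 6.64 to 7.02 without and from 7.11 to 8.01 with treatment, so the WT groups did not overlap while the KO groups did. The WT difference of 0.68 ± 0.28 was not called (adjusted p = 0.227, limma) but was in 3 of 13 other settings, among them the fit of the WT groups alone (adjusted p = 0.00651, limma). The responses of the genotypes differed by 0.39 ± 0.39 (adjusted p = 0.759, limma). Lifr, the LIF receptor chain, differed by -0.04 ± 0.21 in the KO mice and was not called.

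Of 9 JAK kinases and adaptor proteins, 3 were called higher and 1 lower in KO mice after treatment, against 8.7% and 10.1% of all genes. Grb2, an adaptor to the Ras pathway, rose by 0.39 ± 0.09 (adjusted p = 0.0031, limma) and Gab1, a docking protein, fell by 0.74 ± 0.16 (1.67-fold, adjusted p = 0.0015, limma). Gab2 (0.34) and Shc1 (0.30) were the other 2 called higher, and each lost its call in several settings. Between treated KO and treated WT mice 5 of the 9 were called, against 12.8% of all genes. Grb2 (0.29), Shc1 (0.35) and Jak2 (0.32) were higher, and Gab1 (-0.42) and Sos1 (-0.32) lower. Jak1, the brightest kinase of the list, was not called (0.27 ± 0.11 in KO mice, adjusted p = 0.0836, limma). Of 5 other STAT factors, Stat2 of the interferon pathway was called in KO mice (0.62 ± 0.19, adjusted p = 0.0226, limma), and Stat6 was not (0.23 ± 0.10).

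Of 15 inhibitors of JAK and STAT signalling measured, 4 were called higher and 1 lower in the KO mice, against 8.7% and 10.1% of all genes. Socs1, a relative of Socs3 that also blocks JAK kinases, was close to the floor: 4 of 6 untreated KO and 3 of 10 treated KO arrays were at it, and no treated KO array exceeded 4.81. Its difference of 0.65 ± 0.23 was called (adjusted p = 0.0454, limma) but passed in 4 of 11 other settings only. Pias3, named as an inhibitor of STAT3, rose by 0.36 ± 0.10 (adjusted p = 0.0089, limma), and the phosphatase gene Ptpn6 by 0.35 ± 0.10 (adjusted p = 0.0151, limma). Pias1 fell by 0.35 ± 0.06 (adjusted p = 0.000211, limma), but its second brightest probe set differed by 0.01. Socs6 was the other gene called higher (0.28). The log2 difference of Socs3 (2.31) was larger than that of any of these 15 genes in the KO mice. Ptpn2, the brightest inhibitor, was not called (-0.12 ± 0.11).

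Genes known to be induced by STAT3 were followed as a list of 28, all measured. In KO mice 17 were called higher and 3 lower after treatment, 71.4% of the list against 18.8% of all genes. The median difference was 0.60 against 0.00 over all genes. Lrg1, a secreted acute phase glycoprotein, lay at 4.78, 5.57 and 6.06 in untreated and at 5.92, 7.17 and 9.04 in treated KO mice, with little overlap. It rose by 1.78 ± 0.41 (3.45-fold, adjusted p = 0.0026, limma). Saa3, an acute phase serum amyloid, rose by 1.78 ± 0.59 (adjusted p = 0.0322, limma), a call that was lost with the macrophage covariate (1.16, adjusted p = 0.153, limma). Il4ra, a cytokine receptor chain, rose by 1.37 ± 0.31 (2.59-fold, adjusted p = 0.0022, limma), and the transcription factor gene Maff by 0.86 ± 0.16 (1.81-fold, adjusted p = 0.000471, limma). Among the others that rose were Timp1 (1.19), Junb (0.90), Cebpb (0.88), Hif1a (0.80), Bcl3 (0.79) and Bcl2l1 (0.44). Birc5 (-1.04), Myc (-0.54) and Vegfa (-0.33), genes of cell division, growth and vessel formation, fell. Saa1, the brightest gene of the list, differed by 0.08 ± 0.11 and was not called, and its signal near 13.0 lay at the top of the array's range.

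In WT mice none of the 28 genes was called higher, and Birc5 and Vegfa were called lower, with a median difference of 0.16. Of the 28 differences, 18 lay above 0 and 9 below, and 9 genes had an unadjusted p under 0.05 (limma). Many genes outside the list did too: Socs3, at an unadjusted p of 0.025 (limma) in WT mice, ranked only 1818 of 18193 genes. Of all genes, 0.599% were called higher and 1.24% lower in WT mice. The treated genotypes differed for 7 of the 28 genes, all higher in KO mice: Timp1 (1.02), Junb (0.88), Maff (0.84), Il4ra (0.83), Gadd45g (0.62), Hif1a (0.47) and Bcl2l1 (0.46). The median of the list in that comparison was 0.25, and 6.24% of all genes were called higher there. Maff was the only gene of the 7 lists whose response differed between the genotypes in the limma test. Of all genes, 0.0495% were called with a higher response in KO mice. The lists were chosen with earlier results of these data known, so the place of Maff among them is no independent result. In untreated WT mice Maff lay between 6.69 and 7.17 and in treated WT mice between 6.21 and 7.07. In untreated KO mice it lay between 6.26 and 6.90 and in treated KO mice between 6.44 and 8.09. The groups overlapped in each genotype, but the means moved in opposite directions, from 6.97 to 6.55 in WT and from 6.54 to 7.39 in KO mice. The difference of the responses was 1.28 (adjusted p = 0.022, limma), and it lost its call without any 1 of 5 untreated arrays (untreated WT repeats 4 and 5 and untreated KO repeats 1, 2 and 3; adjusted p up to 0.07).

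**Figure D5:**
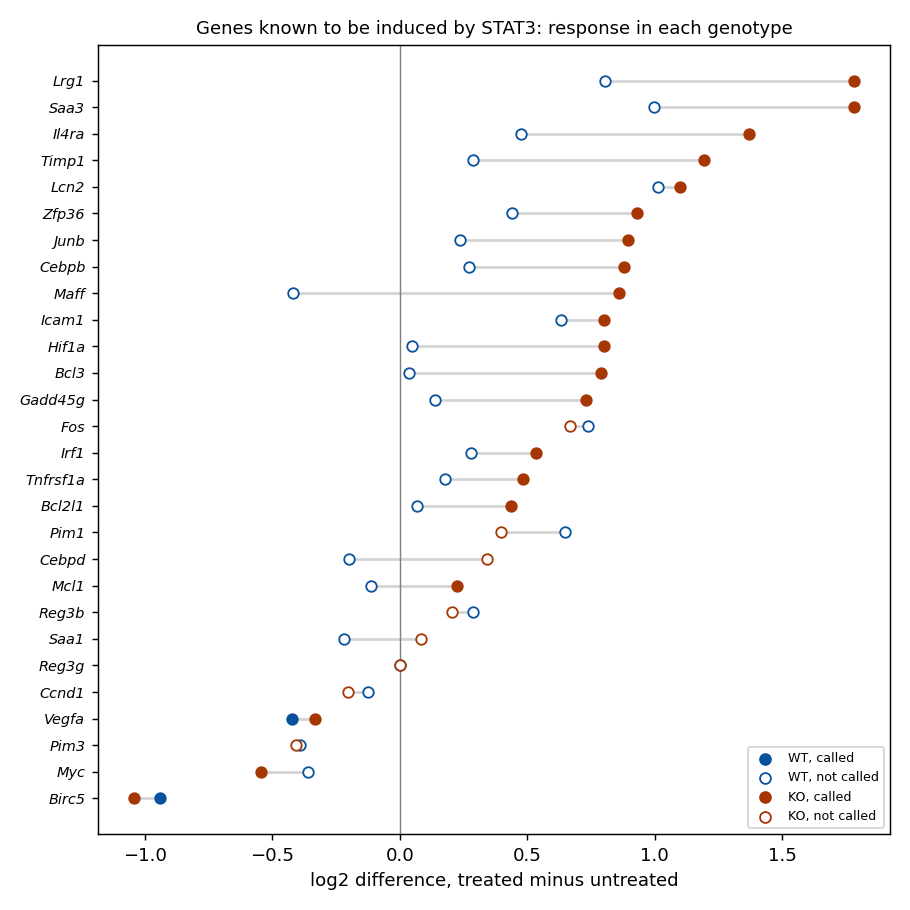
Log2 difference (x axis) between treated and untreated WT mice (blue) and between treated and untreated KO mice (brown) for 28 genes known to be induced by STAT3, each on a line of its own. Filled points were called in that genotype, and a grey line joins the values of a gene. Lrg1, Saa3 and Il4ra have the largest positive differences in KO mice (1.78, 1.78 and 1.37), and Birc5 the largest negative difference (-1.04).

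Another list held cytokine and receptor genes of other systems that signal through STAT3, among them IL-10, IL-22, IL-23, G-CSF and leptin. Of its 12 measured genes, Csf3r (the receptor of the neutrophil growth factor G-CSF) alone was called in KO mice, against 18.8% of all genes. Csf3r rose by 1.01 ± 0.30 (adjusted p = 0.0191, limma), and it is also among the neutrophil markers listed above, so its part in that list mean and in this count is the same measurement. Between treated genotypes Il23a, a subunit of IL-23, was higher in KO mice (0.66 ± 0.21, adjusted p = 0.0353, limma), with 5 of 10 treated WT and 1 of 10 treated KO arrays at the floor. Il10rb differed by 0.27 ± 0.08 (adjusted p = 0.026, limma), although its second brightest probe set gave -0.12. Lepr, the leptin receptor, was not called.

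The calls of these further genes rested on the arrays to different degrees. With each of the 32 arrays left out in turn, the KO response stayed called each time for Osmr, Gab1, Grb2, Pias3, Pias1, Lrg1, Il4ra and Maff. It was lost without untreated KO repeat 2 for Stat2, without untreated KO repeat 2 or 5 for Ptpn6, and without untreated KO repeat 1 or 6 for Csf3r. The KO response of Saa3 was called in 26 of the 32 fits, those of Shc1 and Gab2 in 24 each and that of Socs1 in 18. Between treated genotypes Grb2, Shc1 and Maff stayed called each time, Il10rb in 29 fits, Il4ra in 23, Gab1 in 21 and Il23a in 19. In the other settings the calls between treated genotypes held less well for some genes. They were kept in 5 of 13 for Gab1, 7 of 13 for Il4ra and for Il10rb, and 6 of 11 for Il23a. Grb2 and Shc1 kept theirs in 11 of 13 each and Maff in 12 of 12.

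Some genes outside the pathway followed its members over the 32 arrays. The highest Pearson correlations with Socs3 were those of Trim15 and Aldh1a3 (r = 0.92 each), Ms4a6d and Ednrb (r = 0.91 each). With Il11 they were those of Mmp14 (r = 0.87), Cd55 and Il5ra (r = 0.86 each) and Lipa (r = 0.85). Spearman correlations of these 4 genes with Il11 were lower (0.56 for Mmp14, 0.72 for Cd55, 0.64 for Il5ra and 0.69 for Lipa), and Il11 was at the floor on 13 arrays, with treated KO repeat 3 far above the rest. The Spearman values were 0.74 to 0.87 for the genes named with Socs3. With Stat3 the highest Pearson correlations were those of Tubb6 (r = 0.91) and Kcnj8, Gda and Trio (r = 0.90 each), with Spearman values of 0.79 to 0.88. These values are a description: the arrays share groups and tissue makeup. Aldh1a3, a retinoic acid synthesis enzyme, rose by 2.55 in KO mice after treatment and was 1.46 higher in treated KO than in treated WT mice, both called. Cd55, which restrains complement, rose by 1.07 in KO mice, and Mmp14, a matrix protease, was not called in any comparison.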

How the data were processed

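RNA of 32 distal colons was measured on Affymetrix expression arrays. The design text speaks of biological repeats, and p-values measure the spread between these mice. For each gene the model shares a spread over all 4 groups, so a WT comparison also carries the spread of the KO mice. For Socs3 the SD was 1.62 in treated KO, 0.80 in treated WT and 0.28 in untreated WT mice. The values deposited by the authors are log2 signals of 45101 probe sets, 64 of them controls, scaled by the authors so that the trimmed mean (2%) of linear signals was 150.9 to 151.3 on each array, as the values show. The summarising software is not given in the sources used here. Controls were left out and the log2 values quantile normalized. Symbols came from the platform annotation (34945 probe sets with 1 symbol, 932 with several, 9160 with none). Group means were modelled in limma 3.58.1 under R 4.3.3 (28 residual and 1.10 prior degrees of freedom), with two-sided tests. The same steps were tested on simulated data. The 8 genes, the lists and the tests were chosen with earlier results of these data known. From each list, up to 4 called genes with the largest differences and the brightest uncalled gene were named, and for Socs3, Il11 and Stat3 the 4 genes of highest correlation; other genes were named after their values were seen. Alternatives were median centring, values as deposited, genes under the 40th percentile of signal left out, probe sets averaged or the second brightest used, the compared groups alone, a replicate block, array weights, covariates for RNA integrity, squamous and skeletal muscle, fibroblast and smooth muscle or macrophage signal, and arrays left out. The number of mice, the spread between arrays and the floor limit the precision.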

Additional observations from a re-analysis of the deposited data

Results flagged for a closer look

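Il11 in untreated WT repeat 6 was at 4.18, apart from the other 5 mice of its group, of which the nearest was at 3.64 and 4 were at the floor. Il6ra in treated WT repeat 10 was at 4.69, below the other 9 mice, of which the nearest was at 5.63. These were 2 of 29 sets of a gene and a group that had any spread. Chance alone sets a sample apart in about 1 of 20 sets of normal values without ties. The Il11 set had 4 of 6 arrays tied at the floor, so this rate does not apply to it. The response of Maff to treatment differed between the genotypes, by 1.28 on the log2 scale for KO minus WT, in the limma test of the interaction. Maff stood on a list chosen with earlier results of these data known.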

How the results depend on the processing

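The calls of Il11, Socs3 and Stat3 in treated against untreated KO mice held in every setting in which each gene was tested. The largest adjusted p (limma) was 0.04996 for Il11, barely under the threshold, 0.0363 for Socs3 and 0.0258 for Stat3. Of the 8 genes, 2 were called between treated genotypes, and 1 with the compared groups alone, with the RNA integrity covariate, and without treated WT repeats 1 and 2 (1 to 3 with an array left out). In the KO response 5 were called, and 2 with dim genes left out, which removed Il11, Lif and Osm (4 to 6 with an array left out). With dim genes left out, 31.1% of the remaining genes were called. In the WT response 0 were called, and 1 with the compared groups alone (0 with any array left out). Of the 28 genes known to be induced by STAT3, 7 were called between treated genotypes. There were 12 with median centring or the macrophage covariate, 11 with fibroblast and smooth muscle covariates, and 4 with the compared groups alone or the RNA integrity covariate. With an array left out 5 to 12 were called, 12 without treated KO repeat 9. Over all genes 12.8% were called there, 10.2% with median centring and 16.7% with the macrophage covariate. That share was 17.8% with fibroblast and smooth muscle covariates, 7.34% with the compared groups alone and 8.73% with the RNA integrity covariate. In the KO response 20 were called, and 13 with the macrophage covariate (15 to 21 with an array left out). Over all genes 18.8% were called in the KO response, and 14.4% with that covariate. The second brightest probe set turned Lif (-0.10) and Pias1 (0.00839) in the KO response and Il10rb (-0.12) between treated genotypes. The cause of these changes was not tested.

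With the repeat number as a replicate block, 1 of the 8 genes was called between treated genotypes (Stat3 missed, adjusted p = 0.0615, limma), and all 5 stayed called in the KO response. Deviations of same-numbered mice had median correlations of -0.06 to 0.04 between groups. Single pairs reached 0.34 (untreated KO with treated KO) and 0.24 (treated WT with treated KO). The check showed no general pairing by number, but it cannot exclude that some mice were paired.

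Over all genes, 3416 were called in the KO response (1934 with the compared groups alone), of which 46.3% were higher (65.9% with median centring, 39.1% as deposited). Between treated genotypes 2333 were called (1336 with the compared groups alone), 48.7% of them higher (74.7% with median centring). In WT mice 334 were called (912 with the compared groups alone, 1466 with array weights, 156 with the RNA integrity covariate, 166 to 447 with an array left out). The interaction called 10 (3 with the replicate block, 258 with array weights, 3 to 161 with an array left out).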
